A study of Homo sapiens with 8 samples.

Results

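MUC16, a gene on the minus strand of human chromosome 19 (hg19 19, 8959520 to 9092018, 132.499 kb), was examined for binding sites of polypyrimidine tract binding protein (PTB). Its members were the same-strand peaks of 5 deposited peak lists that overlap this interval, 119 of 266317 peaks in all. They comprised 79 peaks of PTB crosslinked with UVA, 16 of PTB crosslinked with UVC and 24 of a published PTB iCLIP study, with none in either control list. The gene was picked because earlier counts from these lists showed many UVA and few UVC sites here, so its UVA and UVC counts, their ratio and its density are given as descriptions without a test.

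The study used GoldCLIP, a gel-free form of crosslinking and immunoprecipitation that maps where a protein touches RNA in living cells. All 8 samples came from 293T, a human embryonic kidney line carrying a transgene for a Halo-tagged protein. They form 4 groups of 2: Halo-PTB crosslinked with UVA, Halo-PTB crosslinked with UVC, Halo-PTB without UV, and Halo-YFP, a tagged yellow fluorescent protein, with UVC. Every group came as 1 peak list without replicate columns, so no spread between replicates can be given, and sequencing depth is unknown. The tagged proteins came from transgenes in all 4 groups, and the labels name neither their promoter nor the number of clones. The iCLIP list was derived by the submitters from another study, whose cells the series text does not name. A peak list holds no expression values, so the cell label could not be checked against marker genes.

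PTB is an RNA-binding protein that recognises pyrimidine-rich stretches, mostly in introns of nuclear transcripts, and is best known as a repressor of exons. MUC16 encodes a very large membrane-tethered mucin whose shed extracellular part carries the CA125 antigen used as a serum marker in ovarian cancer. Mucins of this kind coat wet epithelial surfaces, and most of the MUC16 protein consists of heavily glycosylated and tandemly repeated segments. Crosslinking with UVC acts on natural bases, and protocols that use UVA usually rely on a photoreactive nucleoside fed to the cells. The labels used here name no such nucleoside.

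Peaks with at most 20 nt between them on a strand were joined into sites, each keeping the highest deposited score of its peaks. MUC16 then held 71 UVA sites, 13 UVC sites and 24 iCLIP sites. The deposited peaks, before joining, covered 3384 nt in the UVA list, 641 nt in the UVC list and 1154 nt in the iCLIP list. No peak without UV and no YFP peak lay in the gene. On its strand the nearest site without UV was 578.0 kb away and the nearest YFP site 3629 kb away, and both control lists are short genome-wide, at 2341 and 1080 sites. The opposite strand of the gene interval held no site in any of the 5 lists, so every site found here was on the strand of the gene.

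The ratio of UVA to UVC sites was 5.46 in MUC16, against 1.79 in the rest of chromosome 19 (6029 UVA and 3366 UVC sites on both strands), a 3.05-fold difference. Over the whole genome outside MUC16 the ratio was 0.870 (70039 UVA and 80518 UVC sites). The rest of chromosome 19 was thus itself richer in UVA sites than the genome. As a share, UVA made up 84.5% of the UVA and UVC sites of MUC16 (exact Clopper-Pearson 95% interval 74.99 to 91.5), against 64.2% in the rest of the chromosome (interval 63.2 to 65.1). Intervals here and below cover counting error only and treat sites as independent. The iCLIP list stood between the arms in MUC16, with 2.96 UVA sites for each iCLIP site, against 1.79 in the rest of the chromosome. Over nucleotides covered, the UVA to UVC ratio was 5.28 in MUC16 and 2.05 in the rest.

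Both the scores kept and the neighbourhood chosen moved this ratio. When only peaks scoring no lower than their own list's median were kept, 12 UVA and 7 UVC sites were left in MUC16, a ratio of 1.71, against 1.61 in the rest of chromosome 19. With scores of at least 20 there were 69 UVA and 7 UVC sites, a ratio of 9.86 against 3.02 in the rest. The 500 kb on either side of the gene on its strand held 25 UVA, 4 UVC and 9 iCLIP sites, a UVA to UVC ratio of 6.25 (interval 2.16 to 24.7), and MUC16 stood at 0.874 times that value. A high ratio was therefore measured over the surrounding megabase taken as a whole also, though from few, unevenly placed sites. Within 100 kb past the gene end lay 5 UVA sites and 1 UVC site. The other UVA and UVC sites lay more than 300 kb from the gene.

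The counts of the 2 arms were set against windows of the length of the gene, laid end to end along both strands of chromosome 19. Of these, 585 outside the gene held a site of a PTB list. MUC16 held more UVA sites (71) than any of them, where the median was 8 and the highest 53. Its 13 UVC sites were not few by the same measure: the windows had a median of 4, an upper quartile of 8 and a highest of 41, and 72 windows (12.3%) held as many or more. By window counts, the sparseness of UVC in MUC16 thus appeared relative to UVA and not relative to the chromosome. Spacing gave no clear answer. The median gap between UVC sites was 5796 nt in MUC16 (interval of the median 2223 to 7999, 12 gaps). In the rest of the chromosome, where gaps between genes count too, it was 3273 nt. The upper quartiles went the other way, at 7765 nt in MUC16 and 14101 nt in the rest. The 24 iCLIP sites of MUC16 were reached by 8 windows, around a median of 4. The windows were not fitted to genes, whereas the interval of MUC16 follows its gene, so these ranks are descriptive.

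**Figure D1:**
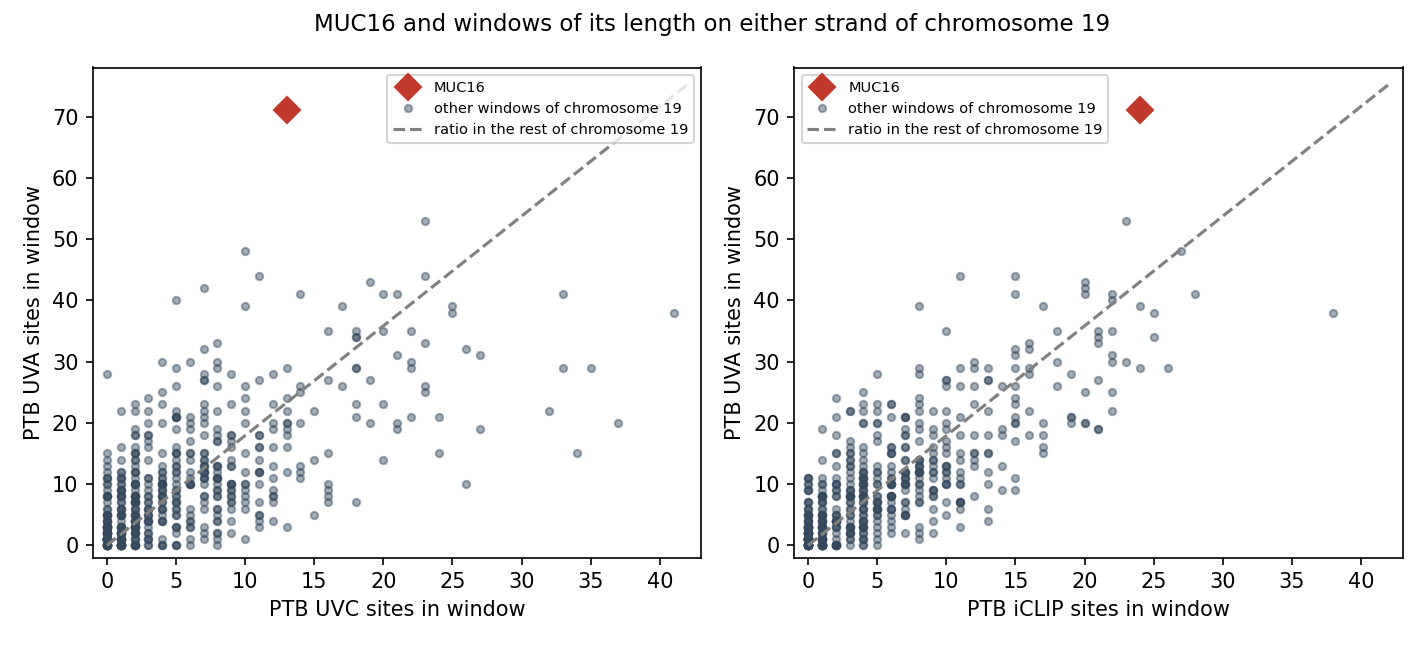
Number of PTB UVA sites (y axis) against PTB UVC sites (left, x axis) and PTB iCLIP sites (right, x axis) in MUC16 (red diamond) and in 585 windows of the same length on chromosome 19 (dots). The dashed line is the ratio in the rest of the chromosome. MUC16 has 71 UVA sites, above the highest window at 53, and its 13 UVC and 24 iCLIP sites lie within the range of the windows.

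Windows with as much UVA or UVC signal as MUC16 gave a second view. The 11 windows with at least 40 UVA sites had from 5 to 33 UVC sites, with a median of 19, and UVA to UVC ratios from 1.24 to 8 with a median of 2.30. In 2 of these 11 windows the ratio was as high as in MUC16. The 70 windows with 10 to 16 UVC sites had a median of 14 UVA sites and at most 48. Of 179 windows with at least 20 UVA and UVC sites together, 19 had a ratio at or above that of MUC16.

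Sites were spread unevenly along the gene, and the longest gap between neighbouring sites was 19703 nt for UVA, 46281 nt for UVC and 18652 nt for iCLIP. The longest UVA gap lay within the longest UVC gap, whereas the longest iCLIP gap lay elsewhere, across the UVA sites between 20 and 30 kb from the gene start. From the gene start, which lies at the high coordinate on this strand, the first 12 kb held no site. The UVA site nearest to the gene start lay 12237 nt from it and the first iCLIP site 12141 nt from it, while the first UVC site lay 23429 nt from it. Before the gene start the strand was empty in the PTB lists for 300 kb, and the nearest UVA site outside was 312947 nt away. RefSeq's current model of MUC16, on GRCh38, is longer than this interval. Its outline on hg19 was not used here. At the gene end, the last UVA site lay 3235 nt inside and the next one 18709 nt outside, with a score of 37 inside and 16 outside.

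Counted in steps of 10 kb from the gene start, the UVA sites rose to 2 maxima. The step from 20 to 30 kb held 13 UVA, 3 UVC and 0 iCLIP sites. The steps from 40 to 50 kb and from 50 to 60 kb held 10 and 20 UVA sites, with 1 and 2 UVC sites and 5 and 6 iCLIP sites. Between 60 and 80 kb only 1 UVA site and 1 iCLIP site were present, and no UVC site. The longest stretch without a UVA site inside the gene, 19703 nt from 9009187 to 9028889, lies mostly in this part. Past it, from 80 to 130 kb, each step held 1 to 6 UVA sites, at most 2 UVC sites and at most 3 iCLIP sites.

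**Figure D2:**
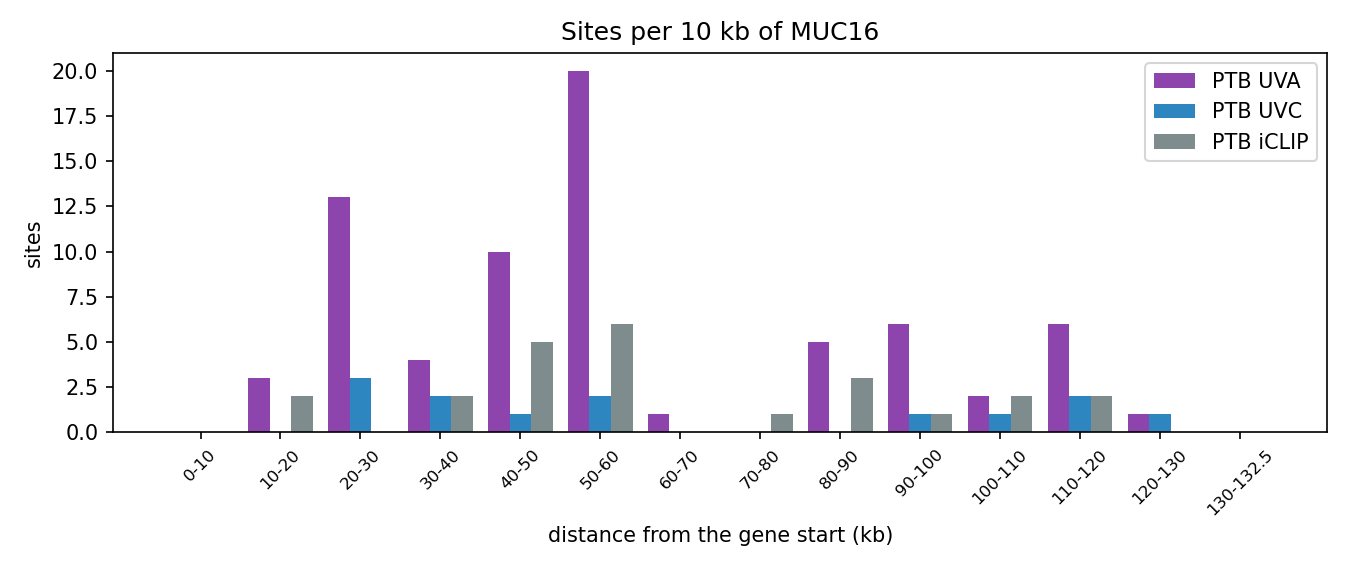
Number of sites (y axis) in each 10 kb step from the gene start (x axis, the last step is shorter), for PTB UVA, PTB UVC and PTB iCLIP. UVA counts reach 13 between 20 and 30 kb and 20 between 50 and 60 kb, iCLIP counts reach 6 in the latter step, and UVC counts never pass 3.

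The densest 20 kb of UVA sites, located after the counts were seen, ran from 9028890 to 9048129, or 43.9 to 63.1 kb from the gene start. This span of 19.2 kb is 14.5% of the gene and held 31 of the 71 UVA sites (43.7%), 2 of the 13 UVC sites (15.4%) and 11 of the 24 iCLIP sites (45.8%). Since the span was chosen for its UVA sites, its UVA share and the UVA to UVC ratio of 15.5 in it are high by choice, and the ratio over the remainder of the gene, 3.64, is low by the same choice. Sites with a score above 100 were also gathered there: 10 of the 11 such UVA sites lay inside it. The median UVA score differed little, at 43 inside the span and 38.5 outside it. No UVC or iCLIP peak of the gene scored above 100, against backgrounds of 2.97% of UVC and 25.4% of iCLIP peaks in the rest of chromosome 19.

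UVA sites followed each other at short distances. The median gap between neighbouring UVA sites in MUC16 was 643.5 nt (interval of the median 404 to 840, 70 gaps), against 1092 nt in the rest of chromosome 19. The quartiles were 176 and 1090 nt in MUC16, and 160 and 6729 nt in the rest of the chromosome. The shortest gaps were about as frequent in both: 27.1% of UVA gaps in MUC16 and 28.0% in the rest were at most 200 nt. Gaps of at most 1000 nt made up 72.9% in MUC16 and 48.6% in the rest. These 2 sets of gaps are unlike. Those of the rest include gaps between genes, up to 4163925 nt, whereas those of MUC16 lie inside 1 gene picked for its many UVA sites. For UVC sites the median gap was 5796 nt in MUC16 (interval 2223 to 7999, 12 gaps) and 3273 nt in the rest. For iCLIP sites it was 2051 nt (interval 359 to 5602, 23 gaps) and 1697 nt. Both of these intervals contain the median of the rest.

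The deposited score of a peak rises as its p-value falls and ranks peaks within a list only. MUC16 peaks had a median score of 42 in the UVA list, against 109 in the rest of chromosome 19. In the iCLIP list the medians were 21 and 46. In the UVC list they were 22 and 19. Above a score of 100 lay 12 of the 79 UVA peaks of MUC16 (15.2%), against a background of 52.4% of UVA peaks in the rest of the chromosome. The UVA and iCLIP peaks of MUC16 were thus many but scored low for their lists, and the UVC peaks scored close to the chromosome's median. The highest UVA peak, with a score of 520, ranked 7553 in its list. The highest UVC peak scored 58 and ranked 5563, and the highest iCLIP peak scored 93 and ranked 15251.

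The UVA to UVC ratio in MUC16 differed between score bands. At scores up to 19 there were 2 UVA and 6 UVC sites in MUC16, a ratio of 0.333, close to 0.372 in the rest of chromosome 19. From 20 to 29 there were 18 UVA and 4 UVC sites, a ratio of 4.50 against 0.581 in the rest. From 30 to 49 there were 27 UVA and 2 UVC sites, a ratio of 13.5 against 1.56. From 50 to 99 there were 13 UVA sites and 1 UVC site, against a ratio of 5.33 in the rest. From 100 upwards MUC16 held 11 UVA sites and no UVC site, and the rest of the chromosome 2780 and 116, a ratio of 24.0. The bands were chosen with the data in view, and equal scores need not mark equal binding in the 2 lists.

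**Figure D3:**
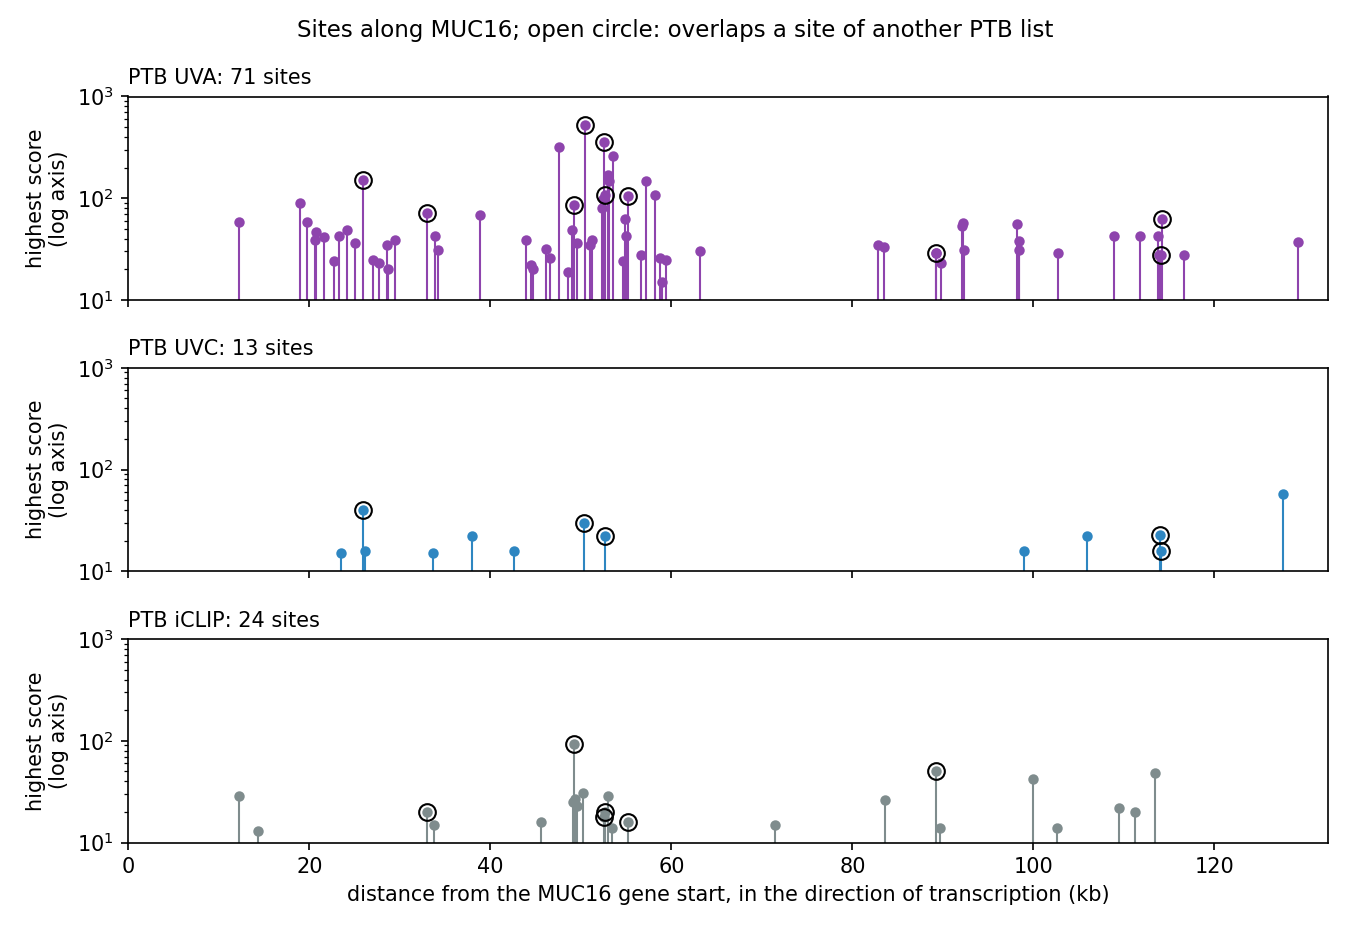
Position of each site of MUC16 (x axis, kb from the gene start) and its highest deposited score (y axis, log scale) in the PTB UVA, PTB UVC and PTB iCLIP lists. Open circles mark sites that overlap a site of another PTB list. The 10 UVA sites above 100 between 44 and 63 kb stand out, and the UVC sites lie between 15 and 58.

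Peak widths were as follows. UVA peaks in MUC16 were 6 to 121 nt wide with a median of 41 nt, and iCLIP peaks 6 to 129 nt with the same median of 41 nt. UVC peaks were 11 to 50 nt wide with a median of 48 nt, and 7 of the 16 were exactly 50 nt. Once touching peaks were joined, all 13 UVC sites were 45 to 50 nt wide. Of these, 10 were exactly 50 nt, against a background of 31.2% of UVC sites in the rest of chromosome 19. In the control lists that share was 52.6% of the 114 sites without UV and 0% of the 47 YFP sites on the chromosome. None of the 71 UVA sites was built of more than 3 peaks. In MUC16, 6 of 71 UVA, 3 of 13 UVC and 0 of 24 iCLIP sites were built of more than 1. In the rest of chromosome 19 these were 943 of 6029 UVA, 1490 of 3366 UVC and 435 of 3366 iCLIP sites. Of the deposited UVC p-values, 3 were each carried by peaks of 2 different sites, 6 sites in all. Repeated p-values were usual in the UVC list. The 16 UVC peaks of MUC16 carried 13 distinct p-values, and the 5143 in the rest of chromosome 19 carried 2517. No interval in MUC16 was listed repeatedly in any PTB list. In the rest of chromosome 19 the repeats were 37 among 7660 UVA, 247 among 5143 UVC and 53 among 3955 iCLIP peaks.

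The lists agreed on few individual positions. Of the 71 UVA sites of MUC16, 5 (7.04%, exact interval 2.33 to 15.7) overlapped a UVC site by at least 1 nt, against a background of 12.4% for UVA sites in the rest of chromosome 19. With iCLIP sites 6 (8.45%, interval 3.16 to 17.5) overlapped, against a background of 21.3%. Of the 24 iCLIP sites, 6 (25%, interval 9.77 to 46.7) overlapped a UVA site, against a background of 38.7%. Of the 13 UVC sites, 5 (38.5%, interval 13.9 to 68.4) overlapped a UVA site, against a background of 23.5%. A single UVC site overlapped an iCLIP site, 7.69% of the UVC sites and 4.17% of the iCLIP sites, against backgrounds of 11.2% and 10.8%. The shares were not tested, since the sites of 1 gene are not replicates.

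**Figure D4:**
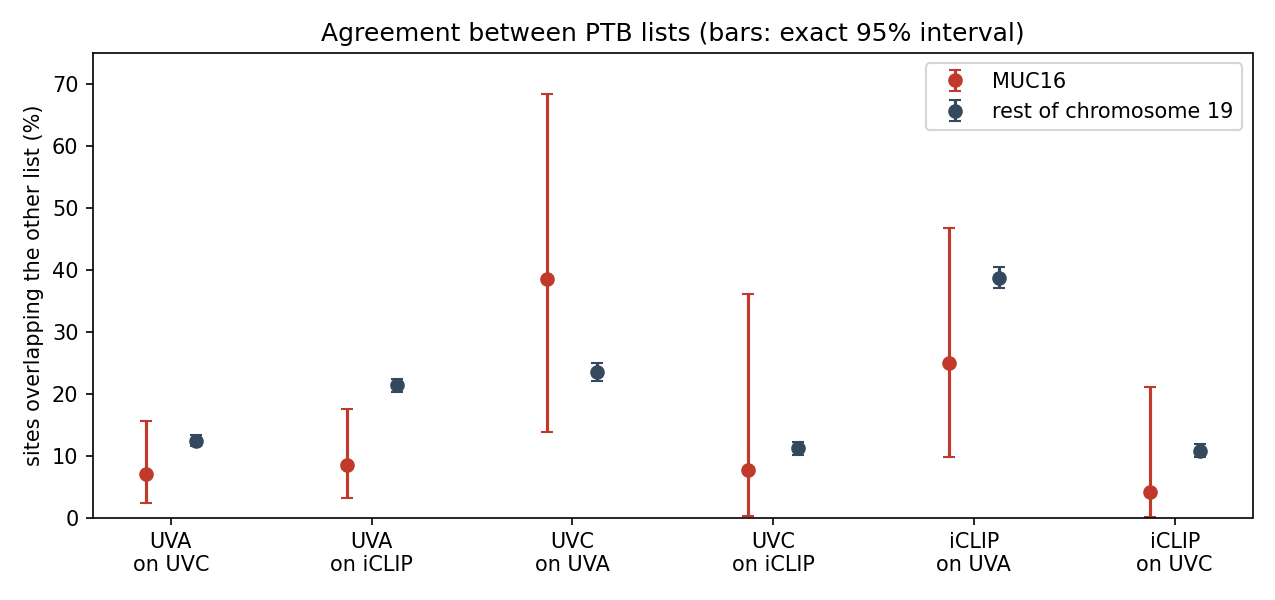
Share of sites of one PTB list that overlap a site of another by at least 1 nt on the same strand (y axis, percent), in MUC16 (red) and in the rest of chromosome 19 (dark), with exact 95% intervals as bars. The UVA share on iCLIP is 8.45% in MUC16 and 21.3% in the rest, and the intervals of the UVC and iCLIP sites of MUC16 are wide.

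Allowing a short distance added matches between UVA and iCLIP. The UVA and iCLIP counts that follow include the 6 sites of each list that overlapped. With a distance of less than 50 nt counted as a match, 13 of the 24 iCLIP sites (54.2%) lay at a UVA site, against a background of 45.1%, and 15 of the 71 UVA sites (21.1%) at an iCLIP site, against 25.9%. The median distance of an iCLIP site to the nearest UVA site was 33.5 nt in MUC16 and 95.5 nt in the rest of chromosome 19. The same allowance added no match between UVA and UVC, which stayed at 5 UVA sites, against a background of 17.4%. Within 500 nt of a UVA site lay 9 of the 13 UVC sites, against a background of 47%. The median gap between UVA sites was also shorter in MUC16 than in the rest of the chromosome, where gaps between genes count too. The part of this spacing in such distances was not tested.

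Pooling the 3 PTB lists and merging them in the same way gave 94 joint sites in MUC16, of which 10 (10.6%, interval 5.22 to 18.7) held peaks of 2 or 3 lists, against a background of 18.2% in the rest of chromosome 19. UVA alone gave 59 (62.8%), UVC alone 8 (8.51%) and iCLIP alone 17 (18.1%). In the rest of the chromosome these shares were 40.4%, 23.0% and 18.4%. UVA and iCLIP without UVC shared 6 joint sites (6.38%), against a background of 8.98% in the rest of the chromosome. UVA and UVC without iCLIP shared 3 (3.19%), against 4.91%. No joint site held UVC and iCLIP peaks without UVA, a combination that was rare in the rest of the chromosome also (0.914%).

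One position, 1.06% of the 94 joint sites of MUC16, was present in all 3 PTB lists, against 3.38% in the rest of chromosome 19. It ran from 9039368 to 9039446, 52.6 kb from the gene start, within the UVA-dense span. Its score was 107 in the UVA list, 22 in the UVC list and 20 in the iCLIP list, which ranked 10 of 71, 6 of 13 and 13 of 24 by score in the gene.

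Both arms, without iCLIP, met at 3 positions. The highest UVA site of the gene, 9041545 to 9041701, had a UVA score of 520 and covered a UVC site of score 30 (9041641 to 9041690). The next iCLIP site, 9041723 to 9041801 with a score of 31, began just past its edge and did not overlap it. The position from 9066008 to 9066162, in the UVA maximum nearer to the gene start, scored 150 with UVA and 40 with UVC. The position from 8977794 to 8978019, in the part of the gene nearer its end, scored 63 with UVA and 23 with UVC. These positions are far apart along the gene, so agreement between the arms was not limited to its densest part.

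UVA and iCLIP without UVC met at 6 positions. The highest iCLIP site of the gene, 9042745 to 9042834 with a score of 93, overlapped a UVA site of score 86 (9042723 to 9042786). The UVA site from 9039479 to 9039534, with a score of 354 the next highest after 520, enclosed an iCLIP site of score 18. At 9002724 to 9002846 the scores were 29 for UVA and 50 for iCLIP, and 50 is the next highest iCLIP score of the gene after 93. The remaining 3 were at 9038913 to 9039020 (UVA 148, iCLIP 29, side by side and not overlapping), 9036845 to 9036891 (UVA 105, iCLIP 16) and 9059018 to 9059095 (UVA 71, iCLIP 20).

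Several of the sites that scored highest within the gene were found in 1 list only. Among the 5 highest UVA sites, those at 9044309 to 9044514 (score 320), 9038366 to 9038492 (score 259) and 9039050 to 9039094 (score 168) overlapped no other PTB site. The highest UVC site, 8964394 to 8964443 with a score of 58, lay 127575 nt from the gene start, in the last part of the gene, and met neither UVA nor iCLIP. Among the 5 highest iCLIP sites, those at 8978516 to 8978580 (score 48), 8991961 to 8992089 (score 42) and 9041723 to 9041801 (score 31) overlapped no other list.

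The other UVC sites without a UVA or iCLIP overlap scored 15 to 22. They lay at 9068540 to 9068589, 9065823 to 9065867, 9058342 to 9058391, 9054050 to 9054099, 9049378 to 9049427, 8993037 to 8993086 and 8986019 to 8986067. Only the UVC sites from 9039368 to 9039417 and from 9041641 to 9041690 fell in the UVA-dense span.

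UVA sites shared with another PTB list scored higher than unshared ones. In MUC16 the 10 UVA sites that overlapped a UVC or iCLIP site had a median score of 95.5 and a median width of 65.5 nt, and the 61 others 38 and 39 nt. In the rest of chromosome 19 the medians were 179 and 64 nt for shared and 65 and 38 nt for unshared UVA sites. Of UVA sites scoring above 100, 5 of 11 in MUC16 (45.5%) were shared, against 44.5% in the rest of the chromosome. Of those scoring up to 100, 5 of 60 (8.33%) were shared, against 15.7%. In the higher band, with only 11 sites in MUC16, the shared share was close to that of the chromosome. In the lower band, which held most UVA sites of MUC16, it was below it. Whether score accounts for the lower sharing in MUC16 was not tested.

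Whether each site lies in an exon or an intron of MUC16 is not given, since no annotation or genome sequence of hg19 was used here, and for the same reason no site sequence is printed.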

How the data were processed

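The 5 deposited peak lists have 10 columns and no header. Per the submitters' processing notes, the tool was Bowtie 1.1.2 and the named builds were dm3 and hg19; positions were read as hg19. How peaks were called and replicates pooled is not given in the sources used here. Per peak, the authors deposited a score (column 7, 0 to 1000) and a p-value (column 8, printed to 14 decimals, none above 0.05). Scores lay within 1 of 10 times the negative log10 of the deposited p-value, rounded down, for 99.3% of UVA, 99.98% of UVC and 99.6% of iCLIP peaks that could be checked. A score of 0 beside a p-value of 0 was read as 1000. No such peak lay in MUC16. A p-value is printed as 0 for 9 UVA peaks of MUC16.

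From these lists, starts were written 1-based, peaks were merged into sites (at most 20 nt between them), and same-strand overlaps of at least 1 nt were counted. Counting intervals are exact (Clopper-Pearson, 95%), and those of median gaps come from order statistics. Merging, overlap and distance were tested on simulated data in 5 checks, with 5 matching bedtools 2.31.1 or a brute-force count, and overlap counts matched bedtools in 20 of 20 ordered pairs of lists. Named sites were every UVC site, every site in 2 or more PTB lists and the 5 highest-scoring UVA and iCLIP sites. The gene and these choices were made with earlier results of these data known. No test was run, because each group is 1 pooled list. Other mucin genes were not analysed here. Software was matplotlib 3.10.9, scipy 1.17.1, pandas 2.3.3 and numpy 2.4.6 under Python 3.11.15.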

Additional observations from a re-analysis of the deposited data

How the results depend on the processing

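Of 71 values recomputed under other settings, 50 stayed within the counting interval of the reported value (counts within 1.5 times), 20 moved further and 1 changed direction. Set against the 500 kb on either side (UVA to UVC ratio 6.25) in place of the whole chromosome, MUC16 was at 0.874 times the ratio of its surroundings. Kept at or above each list's median score, MUC16 had 12 UVA, 7 UVC and 3 iCLIP sites, a ratio of 1.71, which was 1.07 times the 1.61 in the rest of chromosome 19. The UVA shares on iCLIP and UVC sites were then 0% and 16.7%, and the median UVA gap 920 nt. With scores of at least 20, 7 UVC and 15 iCLIP sites were left, and the ratio in the rest of chromosome 19 was 3.02. That ratio was 1.49 with unmerged peaks, 1.56 without exact repeats, 1.54 with merging within 100 nt, 2.05 by nucleotides and 1.95 on the minus strand alone. The UVA share on iCLIP was 21.1% when sites less than 50 nt apart counted, and the share on UVC 1.41% when at least 50% of the UVA site had to be covered. Apart from the median-score and surrounding-500-kb settings, MUC16 stood between 2.57 and 3.32 times the rest of the chromosome. No paired analysis was possible because the lists carry no replicates, and for the same reason no replicate could be left out. The depth behind each list is unknown, so a site missing from a list was only not called in it.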
